A study of Arabidopsis thaliana with 12 samples.

Results

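Expression of 74 cytochrome P450 and UDP-glycosyltransferase (UGT) genes was described in roots and shoots of Arabidopsis thaliana seedlings that carry an estradiol-inducible transgene for CLE3, a small secreted signalling peptide. The genes were taken by their annotated symbol, CYP or UGT followed by a number, a letter and a number, among array features that name exactly 1 gene. CYP71B25 was left out, and a gene with several features was represented by the one with the highest mean. The rule gave 23 P450 genes and 51 UGT genes, 74 of 16542 genes measured by such features. The gene table of assembly TAIR10.1 holds 283 symbols of this form, 225 of them P450 and 58 UGT, so the P450 genes described here are a small part of that family, and 19 of the 23 belong to the single subfamily CYP71B. The others are not analysed here.

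All plants carried the inducible CLE3 transgene, and no plant without it is among the samples. Seedlings were grown for 7 days at 22 °C under continuous light. Their roots were then exposed for 24 h to estradiol, at 5 mM as the labels write it, or to the solvent DMSO, after which roots and shoots were collected separately. Each organ thus has an estradiol group and a DMSO group, with 3 arrays in each of the 4. Groups were read from the sample titles. The source name field conflicts with them, since it puts all root samples under estradiol and all shoot samples under DMSO, and the labels do not resolve this. Separate cultures are not stated for the replicates, so a p-value here speaks of the spread among arrays, possibly technical. The sources used here name neither the promoter of the inducible system nor the number of transgenic lines. No feature naming CLE3 alone was found, so the induced gene's level is not analysed here.

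The array titled root DMSO replicate 3 and the array titled shoot estradiol replicate 3 had the profile of the other organ and were left out. All 6 measured root markers and all 4 measured shoot markers on these 2 arrays lay nearer to the opposite organ. On the remaining 10 arrays every one of these 10 markers separated roots from shoots without overlap. Across all features, these arrays had mean correlations of 0.979 to 0.988 with arrays of their own organ and of 0.871 to 0.878 with arrays of the other organ. This left 3 root arrays with estradiol, 2 root arrays with DMSO, 2 shoot arrays with estradiol and 3 shoot arrays with DMSO. Values below come from these 10 arrays unless all 12 are named. They are the deposited values, taken as log2 expression. A difference of 1 on this scale is a 2-fold change, and the level of one gene's feature cannot be set against that of another.

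Cytochromes P450 are haem enzymes, in plants mostly anchored in the endoplasmic reticulum, that add oxygen to hormones, defence compounds, lipids and phenolics. UGTs attach sugars from UDP-sugars to such molecules, which usually makes them more soluble, inactivates them or prepares them for storage. P450s are grouped into clans, families and subfamilies by sequence, and plant UGTs into families and lettered groups, so that CYP71B and UGT73B are each a set of close relatives. In Arabidopsis many of these genes lie side by side as tandem copies. Relatives this similar may share hybridisation signal on an array, and this was not tested.

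Most of these genes differed between roots and shoots. Of the 74 members, 29 were higher in roots and 26 were higher in shoots at a limma adjusted p under 0.05, and 19 did not pass. The 55 called genes are 74.3% of the members, beside 50.1% of all 38408 features (24.0% on the root side, 26.1% on the shoot side) and 54.7% of the features that represent 1 gene. The contrast was root minus shoot, in log2 units, averaged over both treatments. The median absolute difference was 0.62 among members and 0.41 among all features, and the median signed difference was 0.00 among members and -0.10 among all features. Among the called members 28 differed by at least 2-fold, 17 of them higher in roots and 11 higher in shoots. In 14 of these 28 the mean of the lower organ was below 3.12, the highest lower quartile of the arrays, so their folds are set against dim features. Root and shoot arrays did not overlap at all for 50 members, or 67.6%, beside 41.3% of all features (21.1% with roots higher and 20.2% with shoots higher). Of the 55 called members 46 kept their call as each of the 10 arrays was left out in turn. With all 12 arrays in the groups of their titles 0 members passed, 35 had an unadjusted p under 0.05 and the smallest adjusted p was 0.0779, while 71 of 74 differences kept their sign and 70 were smaller.

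Counts for the 2 superfamilies are given beside the 50.1% of all features called, and the difference between them was not tested. The counts for subfamilies and lists below stand beside the same share, 24.0% on the root side and 26.1% on the shoot side. No set was tested against it. Of 23 P450 genes 5 were higher in roots, 8 were higher in shoots and 10 did not pass, with a median difference of -0.19. Of 51 UGT genes 24 were higher in roots, 18 were higher in shoots and 9 did not pass, with a median of 0.16. The median absolute difference was 0.52 for P450 genes and 0.82 for UGT genes.

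UGT76B1 had the widest organ difference among the 74. It encodes a glucosyltransferase that conjugates isoleucic acid, salicylic acid and N-hydroxypipecolic acid and so restrains defence. It read 8.93, 8.50 and 8.92 in roots with estradiol and 8.83 and 8.84 in roots with DMSO, against 2.56 and 2.86 in shoots with estradiol and 3.17, 3.21 and 2.63 in shoots with DMSO. Every root array thus stood more than 5 log2 units above every shoot array, and treatments mixed within each organ. Roots exceeded shoots by 5.95 (SE 0.15) in the fit, which is 62.0-fold (limma adjusted p 1.49e-08). The shoot values lay near or under the lower quartile of the arrays, which ranged between 2.92 and 3.12 over the 10 arrays, so the fold is set against a dim feature. On all 12 arrays the difference was 3.90 with an adjusted p of 0.0779.

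The UGT73B subfamily was higher in roots throughout. All 5 measured members passed in that direction, with differences of 1.25 to 4.49. Members of this subfamily glucosylate flavonoids in vitro, and several are known as genes induced by oxidative stress and pathogens. UGT73B4, which also conjugates breakdown products of the explosive TNT, read 7.20, 7.35 and 7.36 in roots with estradiol and 6.92 and 7.21 in roots with DMSO, against 2.96 and 3.28 in shoots with estradiol and 2.64, 2.44 and 1.67 in shoots with DMSO. Roots were 22.5-fold higher, by 4.49 (SE 0.19), at a limma adjusted p of 1.25e-07. Its shoot values also lay near or below the arrays' lower quartiles.

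The other UGT73B genes showed the same order with smaller gaps. UGT73B3 averaged 6.27 ± 0.12 in roots and 2.90 ± 0.26 in shoots (SD, n = 5 each), a difference of 3.37 (SE 0.15). UGT73B5 averaged 6.81 ± 0.29 in roots and 3.76 ± 0.20 in shoots (SD, n = 5 each), and roots were 7.98-fold higher (limma adjusted p 2.34e-07). UGT73B2 averaged 7.04 ± 0.14 in roots and 5.05 ± 0.19 in shoots (SD, n = 5 each), a difference of 1.98 (SE 0.09). UGT73B1 had the smallest difference of the subfamily at 1.25 (SE 0.09), with 7.89 ± 0.09 in roots and 6.61 ± 0.16 in shoots (SD, n = 5 each). No root array overlapped a shoot array for any of these genes, and the limma adjusted p was 3.21e-06 for UGT73B1 and lower for the others. Means and SDs here pool both treatments of an organ, so the fitted difference, which weights the treatments equally, can differ slightly from the difference of the means.

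UGT73C, a subfamily of the same family 73, ran the other way. Of its 4 measured members 3 were higher in shoots and 1 did not pass, with a median of -0.66. UGT73C6, a flavonol 7-O-glucosyltransferase, was the member of all 74 with the widest shoot excess. It read 2.37, 2.14 and 3.28 in roots with estradiol and 1.93 and 1.97 in roots with DMSO, against 5.85 and 6.05 in shoots with estradiol and 6.02, 5.65 and 5.58 in shoots with DMSO. Shoots were 11.9-fold higher, a fitted difference of -3.58 (SE 0.22) at a limma adjusted p of 1.14e-06. Of its root values 4 of 5 were under the arrays' lower quartiles. The mean of its features gave -2.67 in place of -3.58, close to CYP71B35 and UGT76E11 at -2.64. Root estradiol replicate 3 was the highest of the root arrays. UGT73C1, which can conjugate cytokinins and TNT products, differed by -0.71 (SE 0.20), a call lost without root DMSO replicate 2 (adjusted p 0.0622). UGT73C2 differed by -0.44 (SE 0.14), and 7 of the 10 omissions of an array ended its call. UGT73C7, named to complete the subfamily after its value was seen, had -0.62 (SE 0.27) with an adjusted p of 0.0843. UGT73D1, the remaining measured member of the family, was higher in roots by 3.10 (SE 0.12), with 5.85 ± 0.21 in roots and 2.75 ± 0.27 in shoots (SD, n = 5 each).

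**Figure D1:**
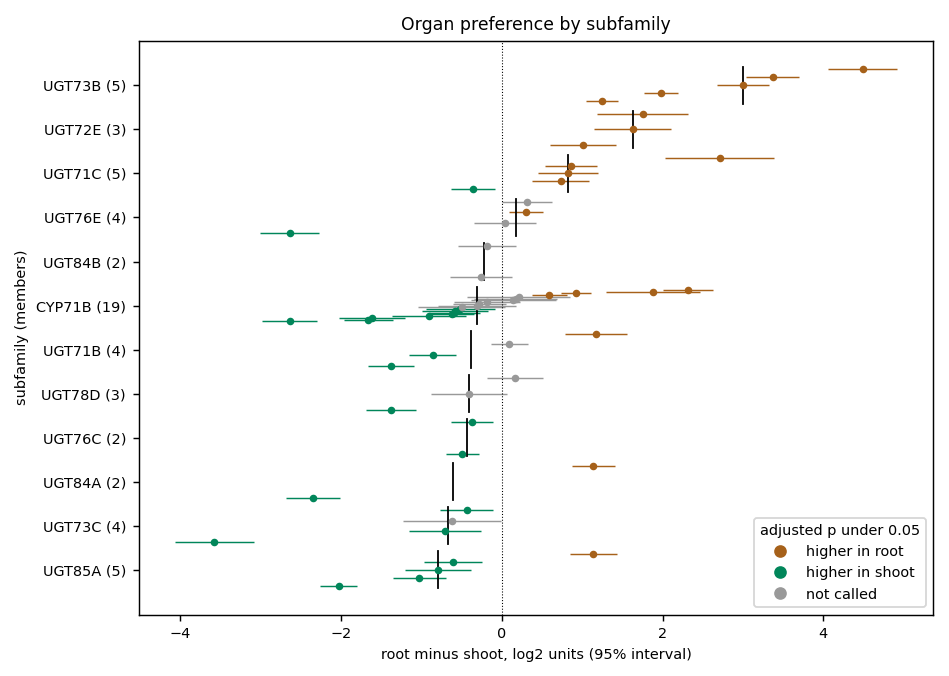
Difference between roots and shoots (root minus shoot, log2 units) for each member of the subfamilies with at least 2 measured members. Points are genes, horizontal lines their 95% intervals, black bars the subfamily medians, and colour shows the limma call at an adjusted p under 0.05. UGT73B lies wholly on the root side (1.25 to 4.49), UGT73C on the shoot side (-3.58 to -0.44), and CYP71B spans -2.64 to 2.32.

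Genes that conjugate phenylpropanoids, the precursors and relatives of lignin, were divided between the organs. Of 10 members on this list 5 were higher in roots, 3 were higher in shoots and 2 did not pass, with a median of 0.58. UF3GT, given below among genes of other symbols, was not counted here and was higher in shoots, at -1.49 (SE 0.18). All 3 UGT72E genes, which glucosylate monolignols and their aldehydes, were higher in roots. UGT72E1 averaged 9.62 ± 0.32 in roots and 7.99 ± 0.35 in shoots (SD, n = 5 each), a difference of 1.63 (SE 0.21). UGT72E2 read 2.80, 3.74 and 3.66 in roots with estradiol and 4.05 and 3.83 in roots with DMSO, against 1.73 and 1.65 in shoots with estradiol and 2.09, 2.73 and 1.63 in shoots with DMSO. Its difference was 1.75 (SE 0.25), and the lowest root array stood only just above the highest shoot array. UGT72E3 differed by 1.01 (SE 0.18), with an adjusted p of 0.0573 under DMSO alone. The shoot values of UGT72E2 and UGT72E3 all lay below the arrays' lower quartiles.

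UGT71C1, which acts on lignans and other phenolics, averaged 4.95 ± 0.36 in roots and 2.24 ± 0.61 in shoots (SD, n = 5 each). Its difference of 2.71 (SE 0.30) was 6.55-fold, at a limma adjusted p of 6.23e-05, and all its shoot values were under the arrays' lower quartiles. UGT84A3 and UGT84A4 belong to the enzymes that form glucose esters of hydroxycinnamates, and they passed in opposite directions. UGT84A3 averaged 1.77 ± 0.18 in roots and 4.14 ± 0.26 in shoots (SD, n = 5 each), a difference of -2.35 (SE 0.15). UGT84A4 averaged 2.88 ± 0.24 in roots and 1.78 ± 0.20 in shoots (SD, n = 5 each), a difference of 1.14 (SE 0.12). UGT84A4 thus was a dim feature in both organs, near the lower quartile in roots and under it in shoots.

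Flavonol conjugation genes of UGT78D showed 1 call. UGT78D1, the flavonol 3-O-rhamnosyltransferase, averaged 2.65 ± 0.25 in roots and 4.03 ± 0.11 in shoots (SD, n = 5 each), a difference of -1.38 (SE 0.14) at a limma adjusted p of 3.1e-05. UGT78D2, a flavonoid 3-O-glucosyltransferase, had 0.16 (SE 0.15). UGT78D3, a flavonol arabinosyltransferase, had -0.41 (SE 0.21) with an adjusted p of 0.132, and it passed without shoot estradiol replicate 1 (adjusted p 0.038).

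UGTs listed as hormone related went both ways, mostly by small amounts. The list includes UGT87A2, which influences flowering time and for which no hormone substrate is given here. Of 12 measured genes of this list 4 were higher in roots and 5 were higher in shoots, beside 24.0% and 26.1% of all features. The other 3 did not pass. The median was -0.22, with UGT76B1 at the upper end. UGT71C5, the main abscisic acid glucosyltransferase, was higher in roots by 0.86 (SE 0.14), with 5.10 ± 0.09 in roots and 4.26 ± 0.28 in shoots (SD, n = 5 each). UGT71B6, which also glucosylates abscisic acid, was higher in shoots, at -0.86 (SE 0.13), with 3.40 ± 0.24 in roots and 4.22 ± 0.19 in shoots (SD, n = 5 each). The mean of its features gave -0.62. UGT71B8, of the same set, had 0.09 (SE 0.10) and did not pass. UGT71C5 and UGT71B6 thus lay on opposite sides, each by less than 2-fold.

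The remaining hormone UGTs, UGT76B1 apart, differed by 0.50 or less in size or, for UGT73C1 above, by 0.71. UGT76C1 and UGT76C2, the cytokinin N-glucosyltransferases, were higher in shoots, at -0.49 (SE 0.09) and -0.37 (SE 0.11), and the call for UGT76C2 was lost without shoot estradiol replicate 1 or root DMSO replicate 2. UGT74F1, a salicylic acid glucosyltransferase, was higher in shoots, at -0.50 (SE 0.09). Among auxin conjugating enzymes UGT74D1 was higher in roots by 0.40 (SE 0.09), or by 0.27 for the mean of its features. UGT84B1 and UGT84B2, also auxin conjugating, did not pass, at -0.19 (SE 0.16) and -0.26 (SE 0.17). UGT87A2, a UGT that influences flowering time, was higher in roots by 0.44 (SE 0.10), with 8.73 ± 0.13 in roots and 8.30 ± 0.13 in shoots (SD, n = 5 each). UGT80B1, the only member on the list of sterol glucosyltransferases, was higher in shoots, at -0.62 (SE 0.09). SGT, a gene of another symbol given below, was higher in roots.

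Of 3 measured genes of glucosinolate and camalexin metabolism, 2 were higher in roots. CYP71B6, a P450 that acts on indole-3-acetonitrile, read 7.14, 7.16 and 7.19 in roots with estradiol and 7.68 and 7.56 in roots with DMSO, against 6.33 and 6.59 in shoots with estradiol and 6.48, 6.52 and 6.45 in shoots with DMSO. Root and shoot arrays did not overlap, and roots were higher by 0.92 (SE 0.08), at a limma adjusted p of 1.79e-05. UGT74B1, the S-glucosyltransferase of glucosinolate core synthesis, had 0.33 (SE 0.12) with an adjusted p of 0.0444, and 7 of the 10 omissions of an array ended its call. CYP79A2, which turns phenylalanine into its aldoxime, had -0.04 (SE 0.13) and did not pass, with values near the lower quartile on every array. CYP78A9, a growth regulator of fruits and seeds, also was dim and did not pass, at -0.07 (SE 0.14).

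The remaining UGTs named by size included several of no assigned role here. In the UGT76E subfamily UGT76E11 was higher in shoots, with 3.63 ± 0.35 in roots and 6.26 ± 0.29 in shoots (SD, n = 5 each) and a difference of -2.64 (SE 0.16). UGT76E12 of that subfamily had 0.31 (SE 0.14) and did not pass (adjusted p 0.0962), except without shoot DMSO replicate 2 (adjusted p 0.0445), and the mean of its features gave 0.14. UGT88A1 was higher in shoots, with 4.39 ± 0.20 in roots and 6.67 ± 0.21 in shoots (SD, n = 5 each) and a difference of -2.27 (SE 0.14). In UGT71B, UGT71B5 was higher in roots by 1.17 (SE 0.17) and UGT71B1 was higher in shoots, at -1.38 (SE 0.13). UGT families 71 and 76 thus held members of both preferences, as family 73 did.

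**Figure D2:**
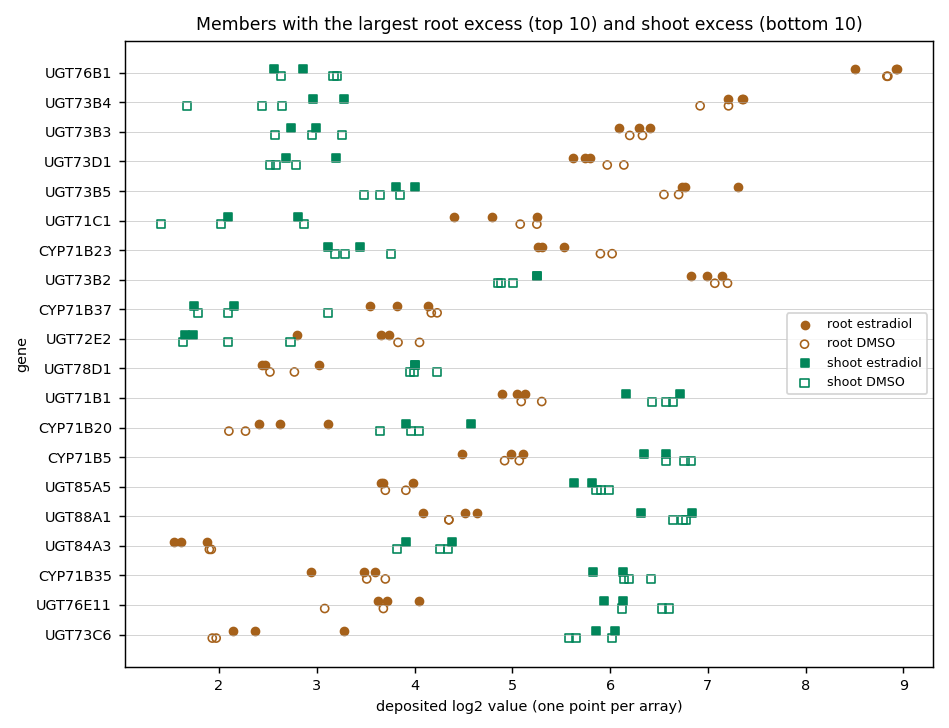
Deposited log2 values of 20 members, 10 higher in roots above and 10 higher in shoots below. They have the widest organ differences among members that passed and whose root and shoot arrays do not overlap. Each point is an array, brown circles are roots and green squares shoots, filled with estradiol and open with DMSO. The lack of overlap between root and shoot points is thus part of the choice of genes. The fitted organ means stand apart by 5.95 for UGT76B1 and by 1.38 for UGT71B1.

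The CYP71B subfamily, to which the camalexin enzyme PAD3 also belongs, was divided between the organs. Of 19 measured members 4 were higher in roots and 8 were higher in shoots, beside 24.0% and 26.1% of all features. The other 7 did not pass. On the shoot side CYP71B24 (means 1.17 in roots, 1.78 in shoots) and CYP71B22 (2.15 and 2.75) lay under the arrays' lower quartiles in both organs. CYP71B21 had an adjusted p of 0.0499 in limma, and its root and shoot arrays overlapped. The median was -0.31, with a range of -2.64 to 2.32. The substrates of most of these enzymes are not established. CYP71B23 read 5.53, 5.26 and 5.30 in roots with estradiol and 5.90 and 6.02 in roots with DMSO, against 3.11 and 3.44 in shoots with estradiol and 3.76, 3.29 and 3.19 in shoots with DMSO. Roots were higher by 2.32 (SE 0.14), 5.00-fold, at a limma adjusted p of 9.95e-07. CYP71B37 averaged 3.98 ± 0.29 in roots and 2.17 ± 0.55 in shoots (SD, n = 5 each), a difference of 1.88 (SE 0.25). Its shoot mean was under the arrays' lower quartiles.

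On the shoot side CYP71B35 read 2.94, 3.59 and 3.48 in roots with estradiol and 3.51 and 3.70 in roots with DMSO, against 5.82 and 6.13 in shoots with estradiol and 6.19, 6.14 and 6.42 in shoots with DMSO. All root arrays were below all shoot arrays, and the 6.23-fold difference was -2.64 (SE 0.15) at a limma adjusted p of 6.94e-07. CYP71B5 averaged 4.92 ± 0.25 in roots and 6.62 ± 0.19 in shoots (SD, n = 5 each), a difference of -1.66 (SE 0.14). CYP71B20 averaged 2.50 ± 0.39 in roots and 4.03 ± 0.34 in shoots (SD, n = 5 each), a difference of -1.62 (SE 0.18), with its root mean under the arrays' lower quartiles. CYP84A4, the P450 of another subfamily that passed, acts in arabidopyrone synthesis and was higher in roots by 0.38 (SE 0.08).

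Position in the genome was not part of the choice of genes, and 40 of the 74 lay in 15 runs of neighbouring members, with no other protein-coding gene of the table between them. Of 25 adjacent pairs 10 were called in the same direction, 8 in opposite directions, and 7 held a gene that did not pass. Both directions occurred within 6 of the 15 runs. Among all 74 members 29 were higher in roots and 26 in shoots, so pairs of either kind arise without any tie between neighbours. Whether neighbours differ from other pairs of members was not tested. Genes named below only for their position were chosen after their values were seen.

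On chromosome 3 a run of 5 genes held CYP71B19, CYP71B20, CYP71B21, CYP71B22 and CYP71B23 in that order. CYP71B23 was higher in roots, at 2.32 (SE 0.14), while its neighbour CYP71B22 was higher in shoots, at -0.58 (SE 0.18). The calls for CYP71B21, at -0.52 (SE 0.19), and CYP71B22 were lost without 6 and 5 of the 10 arrays in turn, and CYP71B19 had -0.28 (SE 0.14) and did not pass. A further run on that chromosome held CYP71B26, CYP71B34, CYP71B35, CYP71B36 and CYP71B37. There CYP71B35 had -2.64 (SE 0.15), CYP71B36 -0.91 (SE 0.20) and CYP71B37 1.88 (SE 0.25), a span of 4.52 log2 units between genes of 1 subfamily, and CYP71B26 and CYP71B34 did not pass.

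Among the UGT runs, UGT84A3 and UGT84A4 on chromosome 4 were adjacent and lay 3.49 log2 units apart. UGT85A7, UGT85A2, UGT85A5 and UGT85A3 formed a run on chromosome 1, in which UGT85A2 was higher in roots by 1.14 (SE 0.13) and the other 3 were higher in shoots, UGT85A5 most at -2.03 (SE 0.10). UGT85A5 averaged 3.79 ± 0.15 in roots and 5.84 ± 0.14 in shoots (SD, n = 5 each). UGT71C4 lay between UGT71C5 and UGT71C3 on the same chromosome and had -0.36 (SE 0.12), with positive differences of 0.86 (SE 0.14) and 0.82 (SE 0.16) on either side. For UGT71C4, 5 of the 10 omissions of an array ended the call. Neighbours also kept the same side, as in UGT73B3, UGT73B2 and UGT73B1 on chromosome 4 and UGT73B5 and UGT73B4 on chromosome 2, where all 5 genes were higher in roots. The annotated span of UGT73B5 (6758430 to 6763501) encloses that of UGT73B4 (6761635 to 6763500). Whether their features share signal was not tested.

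**Figure D3:**
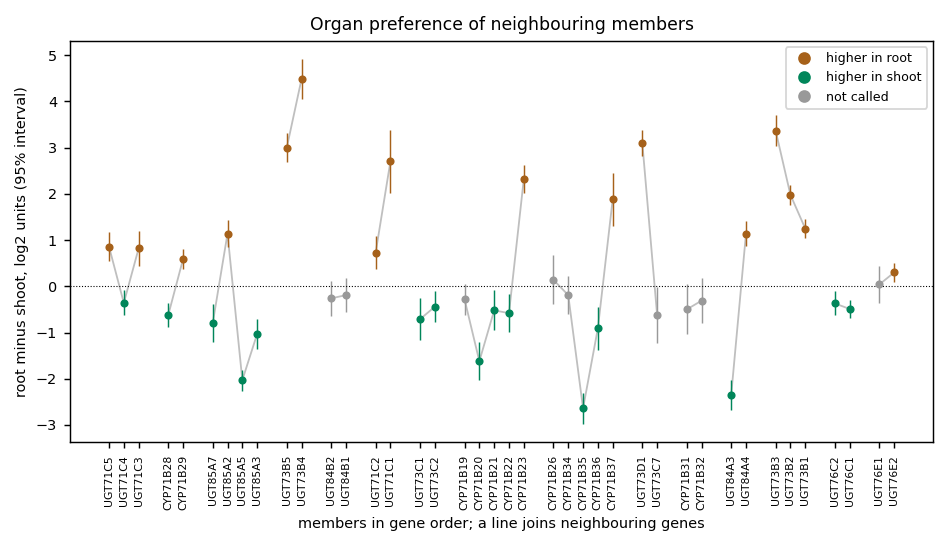
Difference between roots and shoots (root minus shoot, log2 units) along 15 runs of neighbouring members, in gene order. Points are genes with 95% intervals, grey lines join neighbours, and colour shows the limma call. Among the steps that cross from the shoot side to the root side are CYP71B22 to CYP71B23, CYP71B36 to CYP71B37, CYP71B28 to CYP71B29 and UGT84A3 to UGT84A4.

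Organ preference was described under each treatment as well. Under DMSO alone 24 members were higher in roots and 20 higher in shoots, beside 39.2% of all features (19.3% and 19.9%). Under estradiol alone 24 members were higher in roots and 19 higher in shoots, beside 39.3% of all features (19.5% and 19.8%). In these fits 38 members passed under both treatments, 38 of them with the same sign.

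None of these genes passed the threshold between estradiol and DMSO. Since all plants carried the inducible CLE3 transgene, effects of estradiol and of CLE3 induction cannot be told apart in this contrast. In roots 0 of 74 members passed at a limma adjusted p under 0.05, beside 0.00260% of all features (1 of 38408). At an unadjusted p under 0.05 there were 3 members, beside 3.75% of all features. In shoots, which were not treated directly, 0 of 74 members passed, beside 0% of all features. At an unadjusted p under 0.05 there were 6 members (8.11%), beside 8.14% of all features. On all 12 arrays 0 members passed in either organ. That fit includes the arrays with the profile of the other organ and called 0 members for root minus shoot as well. Its count therefore cannot decide whether estradiol had an effect. The median absolute difference between estradiol and DMSO was 0.15 in roots and 0.21 in shoots among members, and 0.13 and 0.16 among all features.

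For most genes the 95% intervals bound the difference in array signal between estradiol and DMSO. The 95% interval of the difference lay within 2-fold in either direction for 65 members in roots and for 62 members in shoots, and it reached past 2-fold for 9 and 12. Half-widths ran from 0.25 to 0.96 with a median of 0.46. However, 38 of the 74 members had every group mean under 5. For 11 members every group mean was under 2.92, the lowest lower quartile of the arrays. In features this dim a narrow interval need not bound a change in transcript. The summed log2 level of the 6 root markers was 60.5 to 61.1 in roots with estradiol and 60.5 to 60.9 in roots with DMSO. That of the 4 shoot markers was 28.7 to 32.5 in roots with estradiol and 29.6 to 31.4 in roots with DMSO. In shoots the root markers summed to 35.8 to 37.1 with estradiol and 34.3 to 36.5 with DMSO, and the shoot markers to 42.4 to 42.8 and 42.5 to 42.7. These ranges overlap between the treatments in each organ. In whole organs, fewer cells of a type and less RNA per cell cannot be told apart.

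In roots the lowest p-values belonged to 3 CYP71B genes with lower values under estradiol, none of which passed. CYP71B6 read 7.14, 7.16 and 7.19 with estradiol against 7.68 and 7.56 with DMSO, a difference of -0.45 (SE 0.12) at a limma adjusted p of 0.999. CYP71B23 had -0.59 (SE 0.19) and CYP71B29 -0.36 (SE 0.14). For these genes the estradiol arrays were all below the DMSO arrays. Estradiol and DMSO arrays of roots lay apart, in either direction, for 19 of 74 members (25.7%), beside 21.0% of all features. On all 12 arrays CYP71B23 had 0.57, with the added root DMSO replicate 3 at 2.47 against 5.90 and 6.02 on the other root DMSO arrays.

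The other decreases named by p in roots were those of UGT84A4, at -0.38 (SE 0.17), and UGT73D1, at -0.34 (SE 0.17). On the positive side UGT73C6 had 0.65 (SE 0.31), CYP71B20 0.53 (SE 0.26), UGT76E11 0.41 (SE 0.23), CYP71B19 0.35 (SE 0.20) and UGT89B1 0.32 (SE 0.18). UGT73C6 read 2.37, 2.14 and 3.28 with estradiol against 1.93 and 1.97 with DMSO, and its difference was 0.30 without root estradiol replicate 3 and 0.14 for the mean of its features. Without 1 array, CYP71B20 had 0.33 (root estradiol replicate 1), UGT89B1 0.21 (root DMSO replicate 1), and UGT76E11 0.11 and CYP71B19 0.18 (both root DMSO replicate 2). Without root DMSO replicate 1, UGT76E11 had 0.72 and CYP71B19 0.53. All had a limma adjusted p of 0.999. Of the 74 differences in roots 28 were positive and 46 negative, with a median of -0.07 beside -0.01 among all features.

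In shoots UGT73B4 had the widest difference among members, 0.87 (SE 0.27), with 2.96 and 3.28 with estradiol against 2.64, 2.44 and 1.67 with DMSO and a limma adjusted p of 0.451. CYP79C2 read 3.36 and 3.29 with estradiol against 2.33, 2.98 and 2.61 with DMSO, a difference of 0.68 (SE 0.21) at a limma adjusted p of 0.451. The estradiol arrays were above the DMSO arrays for both, near the arrays' lower quartiles. UGT71B5 had 0.63 (SE 0.24), CYP71B21 0.62 (SE 0.27) and UGT73B2 0.34 (SE 0.13). CYP71B21 had 0.33 without shoot estradiol replicate 1. Estradiol and DMSO arrays of shoots lay apart, in either direction, for 17 members (23.0%), beside 21.6% of all features.

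Among negative differences in shoots UGT74F1, the salicylic acid glucosyltransferase, had the smallest p. It read 4.56 and 4.54 with estradiol against 4.91, 5.09 and 4.96 with DMSO, a difference of -0.44 (SE 0.13) at a limma adjusted p of 0.448. CYP71B19 had -0.46 (SE 0.20), UGT76E2 -0.28 (SE 0.13), UGT74D1 -0.25 (SE 0.12) and CYP84A4 -0.20 (SE 0.11). UGT76E2 had -0.16 without shoot estradiol replicate 2. None passed, and the 74 differences had a median of -0.05, with 30 positive and 44 negative, beside a median of -0.01 among all features.

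**Figure D4:**
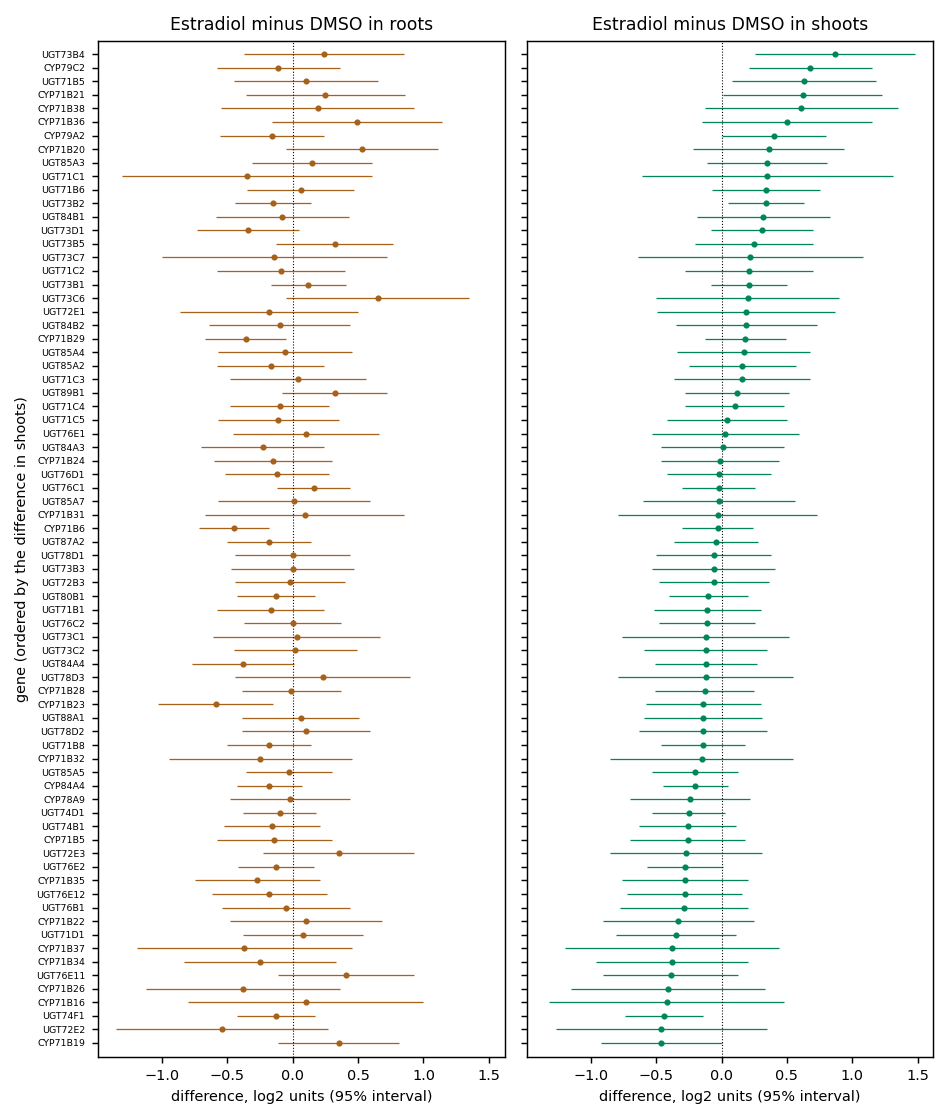
Difference between estradiol and DMSO (log2 units) for each of the 74 members in roots (left) and shoots (right), ordered by the difference in shoots, with 95% intervals. The differences lie between -0.59 and 0.65 in roots and between -0.46 and 0.87 in shoots, and no member passed at an adjusted p under 0.05.

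The effect of estradiol was also compared between the organs, as the effect in shoots minus the effect in roots. No member passed in limma (0 of 74, beside 0.00260% of all features), and at an unadjusted p under 0.05 there were 7 members (9.46%), beside 4.76% of all features. CYP79C2 had 0.79 (SE 0.29), CYP71B29 0.54 (SE 0.20) and UGT73B2 0.48 (SE 0.18). On the negative side CYP71B19 had -0.81 (SE 0.29), UGT76E11 -0.80 (SE 0.32) and UGT72E3 -0.62 (SE 0.36). UGT76E11 had -0.50 without root DMSO replicate 2, and UGT72E3 -0.40 without root estradiol replicate 2. The median half-width of the 95% interval was 0.65, so differences of that size between the organs were not resolved for a typical member.

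Related genes of other symbols and of a partner enzyme family were read in the same fit. Of 4 measured P450 and UGT genes whose symbol has another form 2 were higher in roots and 1 was higher in shoots. UF3GT, an anthocyanin xylosyltransferase, had -1.49 (SE 0.18) and GT72B1, a UGT that conjugates xenobiotics and monolignols, 1.02 (SE 0.09). SGT had 0.36 (SE 0.08), and AT5G54010, at -0.24 (SE 0.11), did not pass. Of 15 glutathione transferases, which conjugate xenobiotics with glutathione, 7 were higher in roots and 4 were higher in shoots, beside 24.0% and 26.1% of all features. The median over these genes was 0.06. By size of the difference GSTU22 came first with 4.93 (SE 0.16), then GSTU25 with 4.08 (SE 0.15), ATGSTF13 with 3.49 (SE 0.15) and GSTU26 with 2.46 (SE 0.17). The widest on the shoot side, named after its value was seen, was GSTU18, at -2.11 (SE 0.11). None of these 19 genes passed for estradiol in roots or in shoots. The lists of P450 electron donors and of indole glucosinolate partners had 0 measured genes.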

How the data were processed

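The deposited table held 1 value for each of 38408 features on 12 Affymetrix arrays. Affymetrix Expression Console 1.3 is the tool in the submitters' processing notes, and its settings are not stated. From their range, the deposited values were read as log2 expression, although the labels name no scale. Gene names come from the platform annotation, brought up to date through gene identifiers in the RefSeq table of TAIR10.1, which held all 74 members. Their order on chromosomes comes from that table. Of the members 36 had a group mean of at least 5 and 5 had more than 1 feature.

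The 4 group means were fitted to 10 arrays in limma 3.58.1 with R 4.3.3 (lmFit and eBayes, two-sided), with Benjamini-Hochberg adjustment over all features and a threshold of 0.05. The fit was also run on simulated data with known changes. Arrays limit the precision by their number. For the organs up to 10 genes per direction were named by size, among members that passed and whose root and shoot arrays did not overlap. For estradiol the 5 smallest p-values per direction were named (3 for the difference between organs). Members of role lists and the extremes of subfamilies with at least 4 members were named as well. Members and lists were chosen with earlier results of these data known. Alternatives were all 12 arrays, array weights, omission of each array, a replicate block, an intensity trend, a filter, 2 normalizations, averaged features, each treatment alone and each organ alone.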

Additional observations from a re-analysis of the deposited data

How the results depend on the processing

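With all 12 arrays the counts of members higher in roots and in shoots, 29 and 26, became 0 and 0, and the single features called for estradiol in roots and for the difference between organs became 0 and 0. Array weights on 12 arrays gave 30 and 26 members, and 2 features for the difference. Restricting the fit to features reaching a mean of 5 in some group gave 21 and 12 members, because fewer members were tested. Without each of the 10 arrays in turn the members numbered 27 to 29 and 22 to 26, and 0 members were called for estradiol or for the difference, while features called numbered 0 to 1 in roots, 0 to 4 in shoots (4 without shoot DMSO replicate 1, 2 without shoot estradiol replicate 2) and 0 to 23 for the difference, 23 of them without root estradiol replicate 3. Of the called members 9 lost their call without at least 1 array and 6 others gained one. Deviations from the group means had correlations of -0.021 to 0.118 over 13 pairs of arrays with the same replicate number. Over 24 pairs with different numbers they were -0.118 to 0.112, and 1 pair of each kind exceeded 0.1. Root DMSO and shoot estradiol hold 2 arrays each, whose deviations mirror each other. Values for same and different numbers are thus not independent. Pairs among the replicate 1 arrays were all positive, at 0.03 to 0.118, so a weak shared deviation remains possible. The main fit did not treat the numbers as pairs. The replicate block gave 27 and 25 members and 0 features in roots and for the difference.

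With all 12 arrays 71 of 74 members kept their sign for root minus shoot, 42 for estradiol in roots and 55 for estradiol in shoots. The turned signs that follow cover the genes named for each comparison, not all 74, and no value printed before the omissions of single arrays passed. For estradiol in roots on 12 arrays they were UGT73C6 (-0.69), UGT76E11 (-0.70), CYP71B19 (-0.01), CYP71B23 (0.57), UGT84A4 (0.02) and UGT73D1 (0.86). For root minus shoot they were CYP78A9 with quantile normalization (0.13) and under estradiol alone (0.04), CYP79A2 on 12 arrays (0.04), with quantile normalization (0.08) and under DMSO alone (0.24), UGT71B8 on 12 arrays (-0.02), UGT84B1 under DMSO alone (0.02) and CYP71B19 under estradiol alone (0.13). As each array was left out in turn, root minus shoot of named genes ran from -0.18 to 0.03 for CYP78A9, from -0.12 to 0.01 for CYP79A2, from -0.11 to 0.40 for CYP71B26, from -0.43 to 0.04 for CYP71B34 (which passed at -0.43, without shoot estradiol replicate 1) and from -0.07 to 0.14 for UGT76E1. Root DMSO replicate 3, which the fit on 12 arrays adds to the roots, read 5.97 for UGT73C6, 6.72 for UGT76E11 and 3.81 for CYP71B19. It read 2.47 for CYP71B23, 1.91 for UGT84A4 and 2.44 for UGT73D1. The cause of the turned signs was not tested.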
